A study of Mus musculus with 8 samples.

Results

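The genes described here are those with which skeletal muscle stores, releases and recovers calcium at the sarcoplasmic reticulum. They were taken by symbol from the gene tables of 8 soleus libraries: Atp2a1, Atp2a2, Pln, Sln, Casq1, Casq2, Ryr1, Ryr3, Pvalb and Jph1. All 10 were found among 16382 named genes, and each was above 0 in every library. The study compared whole soleus muscles of female Megf10 KO mice with those of female WT mice, 7 months old, with 4 libraries per genotype and 1 mouse per library. KO mice were homozygous for a tm1b allele that deletes exon 4 of Megf10 throughout the body, and WT mice were wild type for Megf10. The labels list no treatment for either genotype. RNA was selected for poly-A tails and sequenced from the whole muscle, so fewer fibers of a type and less RNA per fiber cannot be told apart. The strain of the WT mice and the housing site of the sequenced mice were not given in the sources used here.

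A muscle action potential is sensed by the calcium channel of the transverse tubule, which opens ryanodine receptors in the facing membrane of the sarcoplasmic reticulum and lets stored calcium out to start contraction. SERCA pumps, the calcium ATPases of the reticulum, then return calcium to the store, where calsequestrin binds it, and the muscle relaxes. Fast fibers mainly use SERCA1 and slow fibers SERCA2, and the mouse soleus mixes slow fibers of type I with fast ones of type IIa.

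Megf10 itself was at 1.55, 7.76, 1.12 and 11.1 normalized counts in the 4 KO libraries, against 63.0, 57.1, 69.7 and 70.0 in the 4 WT libraries, which fits the labels of all 8. Normalized counts are the reads of a gene after the authors' scaling between libraries. Depth recovered from the spacing of low values was 37.8 M reads in KO replicate 1 and 26.0 to 26.4 M reads in KO replicates 2 to 4, against 36.7 to 41.5 M reads in WT libraries. KO replicates 2 and 3 also stood apart in Myh4, the myosin heavy chain of type IIb fibers, with 18638 and 43384 normalized counts, against 929.5 and 459.5 in KO replicates 1 and 4 and 746 to 3625 in WT libraries. The results are therefore also given without KO replicates 2 and 3.

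Promoter sequences are shown for 3 genes that passed the test below, 1 that fell and 2 that rose, so that the letters near their starts can be set side by side. They were chosen among called genes for the motifs they hold. RefSeq held a promoter for 6 of the 10 genes on build GRCm38.p6, as 250 bases before to 50 bases after the start of the gene. That is an older build than the authors used, and it serves here for sequence only. Capitals mark matches, on either strand, to the E-box CANNTG, to the MEF2 core CTAAAAATA and to the TATA box TATAAA. E-boxes are the sites of myogenic bHLH factors, MEF2 is a muscle transcription factor, and CAGCTG is itself an E-box. The Atp2a1 promoter lies at chr7:126463024-126463323 on the minus strand, the Casq2 promoter at chr3:102086165-102086464 on the plus strand and the Pln promoter at chr10:53337436-53337735 on the plus strand.
Atp2a1: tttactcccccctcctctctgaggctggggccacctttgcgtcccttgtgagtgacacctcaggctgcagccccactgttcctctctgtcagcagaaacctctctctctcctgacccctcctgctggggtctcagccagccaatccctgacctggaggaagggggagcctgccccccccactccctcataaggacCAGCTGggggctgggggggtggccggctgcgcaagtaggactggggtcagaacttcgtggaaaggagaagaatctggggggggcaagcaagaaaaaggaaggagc
Casq2: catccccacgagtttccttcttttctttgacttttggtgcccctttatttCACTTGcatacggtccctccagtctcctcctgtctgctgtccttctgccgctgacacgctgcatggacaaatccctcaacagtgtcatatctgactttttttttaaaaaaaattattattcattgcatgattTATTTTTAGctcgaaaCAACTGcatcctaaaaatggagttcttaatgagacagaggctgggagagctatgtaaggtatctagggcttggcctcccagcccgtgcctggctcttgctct
Pln: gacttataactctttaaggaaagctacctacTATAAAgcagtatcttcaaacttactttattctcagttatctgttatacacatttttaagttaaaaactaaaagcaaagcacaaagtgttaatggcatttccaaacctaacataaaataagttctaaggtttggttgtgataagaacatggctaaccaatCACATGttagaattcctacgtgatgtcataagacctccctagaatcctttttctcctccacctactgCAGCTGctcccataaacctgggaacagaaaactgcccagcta
The Atp2a1 promoter held 1 E-box, a CAGCTG at position -55 from the start. The Casq2 promoter held 2 E-boxes, at positions -200 and -52, and the MEF2 core at -68. The Pln promoter held E-boxes at -59 and 8, the second a CAGCTG, and a TATAAA at -219. Of 32851 RefSeq promoters of this length, 72.3% held CANNTG, 16.3% CAGCTG, 13.6% TATAAA and 0.517% CTAAAAATA. The promoter of Ryr1, which fell, held none of these motifs. Casq1 had E-boxes at -195 and -67, the first a CAGCTG, and of 2 Pvalb promoters 1 held none and 1 held 2 E-boxes. An E-box was thus the usual case over all promoters, while the core that Casq2 held was found in few promoters. A match is a description of the letters and not a measured site.

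In KO soleus 6 of the 10 genes passed the test: Pln, Sln, Casq2 and Ryr3 rose, Atp2a1 and Ryr1 fell, and Atp2a2, Casq1, Pvalb and Jph1 did not pass. The test was limma on log2(normalized count + 1) over all named genes, 2-sided, with Benjamini-Hochberg adjustment and a threshold of 0.05. It called 8.95% of all genes, 5.16% higher and 3.79% lower in KO. The KO and WT libraries did not overlap for 7 of the 10 genes, Jph1 being the additional one, and for 17.2% of all genes. The median log2 fold change of the 10 genes was 0.26, against -0.0072 over all genes, and the median of its size without sign was 0.50, against 0.22.

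**Figure D1:**
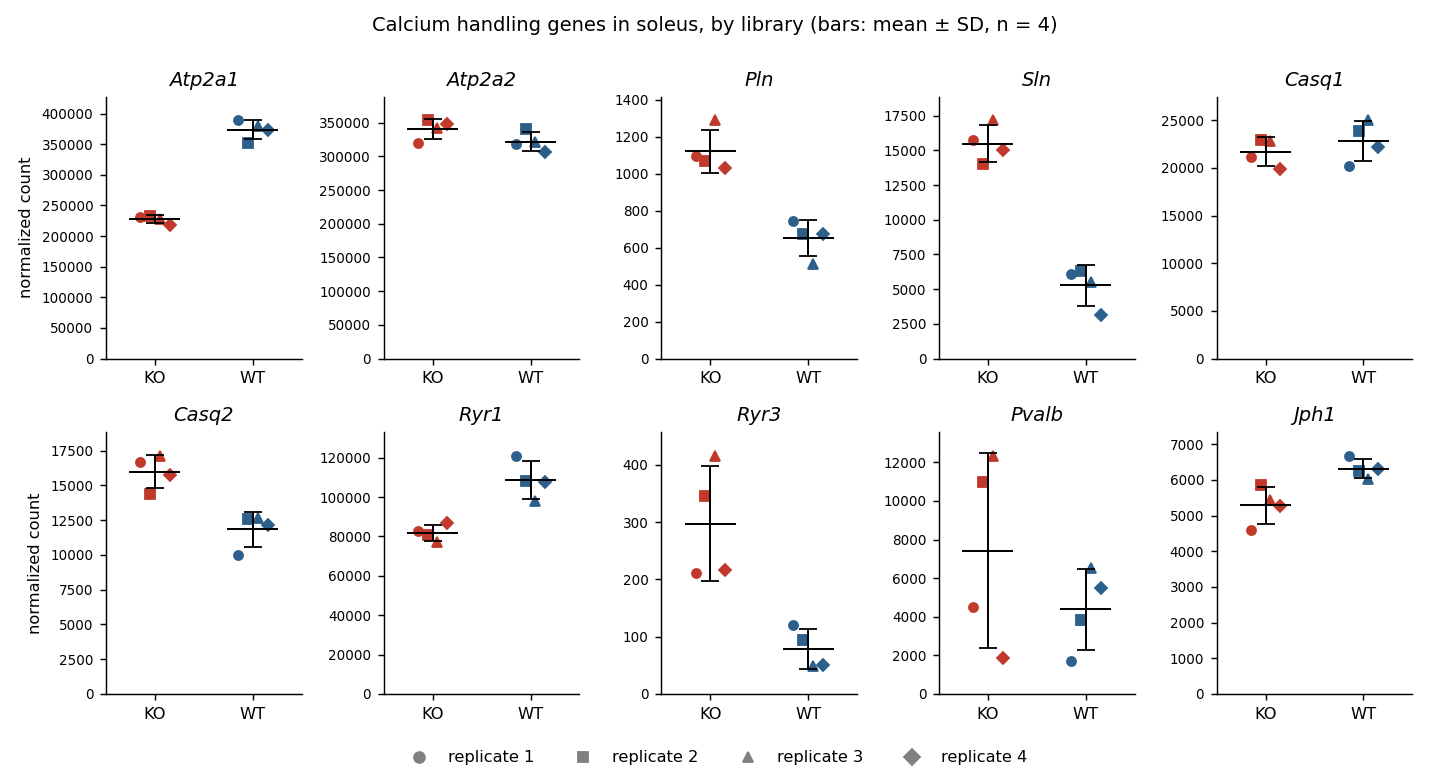
Normalized counts (y axes, linear from 0, a scale for each gene) of the 10 genes in 4 KO libraries (red) and 4 WT libraries (blue), with marker shapes for the replicate number and bars for mean ± SD. KO and WT points are apart for Atp2a1, Pln, Sln, Casq2, Ryr1, Ryr3 and Jph1, while Pvalb spreads over both genotypes.

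Per kilobase of the longest coding transcript, the pumps were the most abundant of the 10 genes in both genotypes. Atp2a2 was at 75969 ± 3322 normalized counts per kilobase in KO soleus and 71788 ± 3141 in WT soleus, and Atp2a1 was at 65392 ± 1936 in KO and 107451 ± 4429 in WT (SD, n = 4 each). Atp2a2 therefore ranked above Atp2a1 in KO and below it in WT, by gaps larger than the SDs in each genotype. Casq1 ranked 3 in both, at 11754 ± 809.8 in KO and 12345 ± 1136 in WT. Sln, at 11746 ± 1008 per kilobase in KO, was not separable there from Casq1, whereas in WT it stood at 3994 ± 1097, among Casq2 (4642 ± 492) and Pvalb (4490.4 ± 2153). Jph1, Pln and Ryr3 were the 3 lowest in both genotypes, and Ryr3 was at 19.2 ± 6.51 per kilobase in KO and 5.06 ± 2.27 in WT.

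The fast pump fell and the slow pump did not pass the test. Atp2a1, which encodes SERCA1, was at 231428, 232440.4, 227899 and 217698 normalized counts in the KO libraries, against 388884, 352736, 380055 and 372755 in the WT libraries. All 4 KO libraries were below all 4 WT libraries, and the coefficient of variation (CV) was 2.96% in KO and 4.12% in WT. The mean was 227366 ± 6733 in KO and 373608 ± 15398 in WT (SD, n = 4 each), a log2 fold change of -0.72 (SE 0.063, limma adjusted p = 0.000582). Atp2a2, which encodes SERCA2, was at 319629, 353438, 341739.9 and 348378 normalized counts in the KO libraries, against 318467, 341034, 321515 and 307153 in the WT libraries. The genotypes overlapped, with KO replicate 1 among the WT libraries and WT replicate 2 among the KO libraries. Its log2 fold change was 0.08, with a 95% interval of -0.07 to 0.23 (limma adjusted p = 0.485).

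Taken as a share of the reads of both pumps, Atp2a1 made up 42.0, 39.7, 40.0 and 38.5% in the KO libraries, against 55.0, 50.8, 54.2 and 54.8% in the WT libraries. The sum of both pumps was 568163 ± 14294 normalized counts in KO and 695650 ± 11878 in WT (SD, n = 4 each), without overlap. Both pumps together took 1.69 to 1.80% of each KO library and 1.96 to 2.10% of each WT library. The order of the pumps within a library was thus the same in all 4 libraries of a genotype and opposite between genotypes. This order is not per kilobase and concerns reads.

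Some markers of fast fibers differed between genotypes in the direction of Atp2a1. Of 9 fast fiber markers, Myh2, Tnni2, Tnnt3 and Tnnc2 fell and 5 did not pass, with log2 fold changes of -0.05 for Myh1 and Mylpf, 0.90 for Actn3, 0.98 for Mybpc2 and 1.86 for Myh4. The median of the list was -0.05, and its summed level was 719102 to 789703 in KO and 1027054 to 1162622 in WT libraries. Myh2, the myosin heavy chain of type IIa fibers, was at 276934, 221374, 221465 and 283412 normalized counts in KO, against 498448, 467242, 415478 and 463783 in WT. Its log2 fold change was -0.89 (SE 0.102, limma adjusted p = 0.00142), with no overlap between genotypes, as for Atp2a1. The Pearson r of log2(normalized count + 1) of Myh2 and Atp2a1 was 0.938 across the 8 libraries. It was -0.252 after each genotype was centered on its mean. For the other myosins of adult fibers the centered r with Atp2a1 was 0.063 for Myh1, 0.264 for Myh4 and -0.718 for Myh7. With 8 libraries these values do not settle what the genes share within a genotype. Of 7 slow fiber markers, Tnni1 rose and Myl3 fell. Myh7, the slow type I myosin, was at 652676 to 688467 in KO and 523820 to 675603 in WT and did not pass (log2 fold change 0.23, limma adjusted p = 0.134). The part of fiber composition in the result for Atp2a1 was not tested.

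Pln and Sln, which encode small inhibitors of the SERCA pumps, rose. Phospholamban (Pln) binds SERCA2 in heart and slow muscle and lowers its affinity for calcium until it is phosphorylated. Pln was at 1092, 1069, 1287 and 1029.6 normalized counts in the KO libraries, against 743, 674, 513 and 673 in the WT libraries. Every KO library was above every WT library, and KO replicate 3 was the highest while WT replicate 3 was the lowest. The mean was 1119 ± 115 in KO and 651 ± 97.6 in WT (SD, n = 4 each), a log2 fold change of 0.79 (SE 0.121, limma adjusted p = 0.00415). Its level was low beside that of the pump it regulates, with 71.7% of all genes below it by mean, against 99.9% for Atp2a2.

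Sarcolipin (Sln) is a short peptide of the same membrane that uncouples calcium transport from ATP use by SERCA, and in mice it is abundant in neonatal muscle and in the atrium. Sln was at 15739, 13982, 17152 and 15049.9 normalized counts in the KO libraries, against 6088, 6290.0, 5527 and 3151 in the WT libraries. The lowest KO library was far above the highest WT library, and WT replicate 4 was the lowest of the 8. The mean was 15481 ± 1328 in KO and 5264 ± 1445 in WT (SD, n = 4 each), a 3.04-fold difference with a log2 value of 1.60 (SE 0.187, limma adjusted p = 0.00148).

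Some embryonic fiber markers differed between genotypes in the direction of Sln. Myh3, the embryonic myosin heavy chain, was at 8845, 7594, 9886 and 5877 normalized counts in KO, against 1342, 2259, 1449.7 and 1883 in WT (log2 fold change 2.22, SE 0.185, limma adjusted p = 0.000434). Myh3 and Myl4 of the 3 embryonic markers rose and Myh8 did not pass, and their sum was 7389.7 to 13615 in KO and 2171 to 3093 in WT libraries. The highest KO library in Myh3, replicate 3, was also the highest in Sln and Pln. WT replicate 4, the lowest in Sln, was above WT replicates 1 and 3 in Myh3. The Pearson r of log2(normalized count + 1) of Sln and Myh3 was 0.906 across the 8 libraries. It was -0.021 after each genotype was centered on its mean. KO replicates 3 and 1, in that order, and WT replicate 2 were nonetheless the highest of their genotypes in both genes. With 8 libraries these values do not settle whether the 2 genes vary together within a genotype. Of 5 cardiac markers, Nppb and Myl7 were not among the genes measured and none of the others passed. Myh6 was at 673 to 1208 in KO and 783 to 935 in WT, and Nppa and Tnni3 stayed at or under 16.6 normalized counts in every library, none at 0. The part of embryonic fibers in the result for Sln was not tested.

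Of the 2 calsequestrins, which hold calcium inside the store, the cardiac and slow form rose and the main skeletal form did not pass. Casq2 was at 16689, 14396, 17134 and 15759.9 normalized counts in the KO libraries, against 10005, 12619.8, 12658 and 12174 in the WT libraries. The groups did not overlap, WT replicate 1 being the lowest and KO replicate 2 the nearest to WT. The mean was 15995 ± 1209.7 in KO and 11864 ± 1259 in WT (SD, n = 4 each), a log2 fold change of 0.43 (SE 0.087, limma adjusted p = 0.0130). Casq1 was at 21172, 22962, 22868 and 19836 normalized counts in the KO libraries, against 20185, 23891, 24980.1 and 22151 in the WT libraries. The genotypes overlapped over most of their range. The log2 fold change of Casq1 was -0.07, with a 95% interval of -0.24 to 0.10 (limma adjusted p = 0.628), and its sign turned with the scaling, to 0.01 when libraries were scaled by total alone.

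The ryanodine receptors, the release channels of the store, moved in opposite directions. Ryr1, the main channel of adult skeletal muscle, was at 82906, 80825, 77095 and 86914 normalized counts in the KO libraries, against 120982, 108219, 97936 and 107578 in the WT libraries. All KO libraries were below all WT libraries, with WT replicate 3 the nearest to KO. The mean was 81935 ± 4098 in KO and 108679 ± 9455 in WT (SD, n = 4 each), a log2 fold change of -0.40 (SE 0.073, limma adjusted p = 0.00847).

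Ryr3, a channel that mouse muscles express around birth and that most of them lose later, was at 212, 346, 416 and 216 normalized counts in the KO libraries, against 120.1, 94.4, 48.0 and 50.6 in the WT libraries. KO replicates 2 and 3 were the highest, and KO replicates 1 and 4 were also above every WT library. The mean was 297 ± 101 in KO and 78.3 ± 35.1 in WT (SD, n = 4 each), a 3.89-fold difference with a log2 value of 1.96 (SE 0.329, limma adjusted p = 0.00603). It had the largest log2 fold change of the 10 genes and the lowest level, and its CV of 33.9% in KO and 44.8% in WT was second to that of Pvalb. Reads that fit both paralogs were divided by Salmon, so the level of Ryr3 beside the far more abundant Ryr1 depends on that assignment, as does that of the pumps and the calsequestrins. Ryr2, the channel of the heart, was at 2.27 to 23.0 normalized counts in KO and 19.8 to 27.3 in WT and did not pass (log2 fold change -1.18, limma adjusted p = 0.208).

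**Figure D2:**
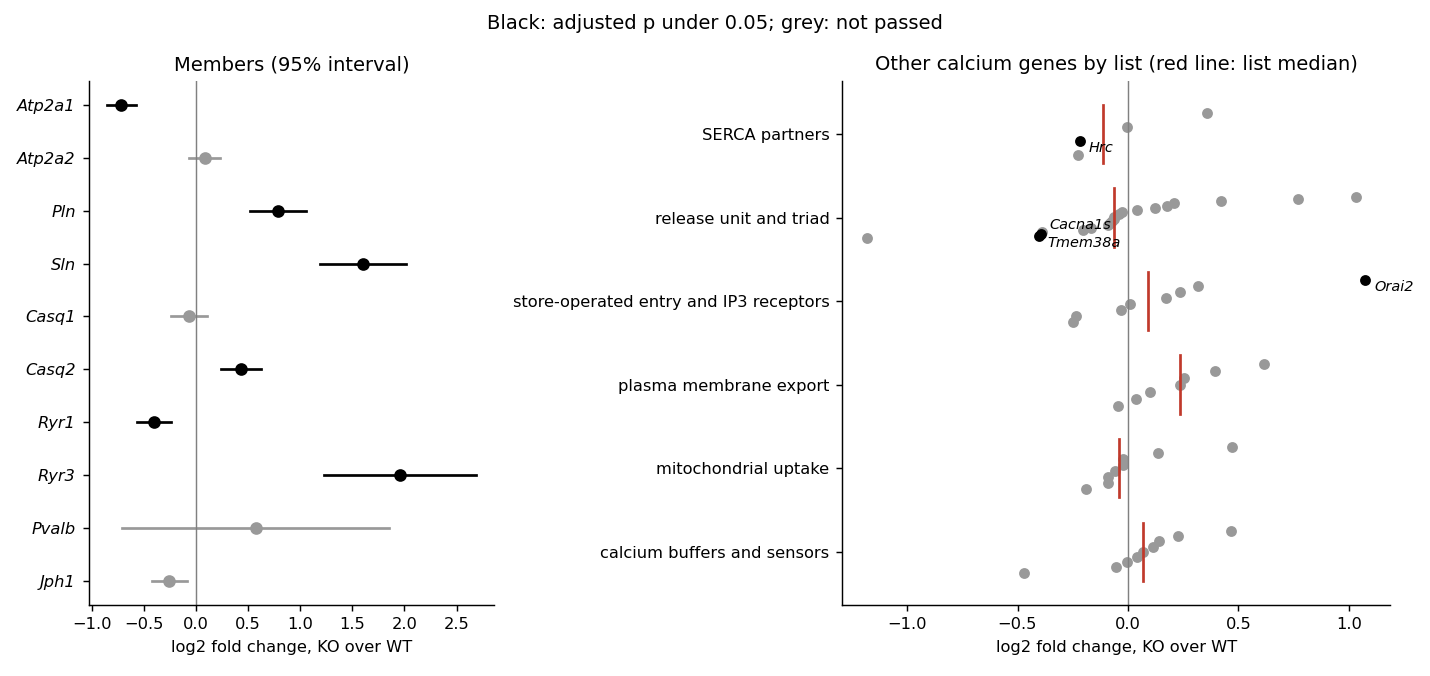
Log2 fold changes, KO over WT (x axes), of the 10 genes with 95% intervals (left) and of the other calcium genes by list (right, 1 point per gene, red line for the list median), black where the adjusted p was under 0.05. The 10 genes run from -0.72 for Atp2a1 to 1.96 for Ryr3, while all list medians lie between -0.11 and 0.24.

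Parvalbumin (Pvalb), a cytosolic buffer of fast fibers in mice that speeds relaxation, varied more between mice of a genotype than between genotypes. Pvalb was at 4510.2, 11003, 12336 and 1867 normalized counts in the KO libraries, against 1705, 3841, 6535 and 5467 in the WT libraries. KO replicates 2 and 3 were the highest of the 8, while KO replicate 4 and WT replicate 1 were the lowest. The CV was 67.9% in KO and 47.9% in WT, and the log2 fold change of 0.57 had a 95% interval of -0.71 to 1.85 (limma adjusted p = 0.583). Without KO replicates 2 and 3 it was -0.43, so its sign rested on those 2 libraries.

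Actn3 and Mybpc2, of the 9 fast fiber markers, shared the pattern of Pvalb, while Myh2, Tnni2, Tnnt3 and Tnnc2 of that list fell in KO. Myh2 was lowest in KO replicates 2 and 3. After each genotype was centered on its mean, Pvalb and Myh2 had a Pearson r of -0.913. Actn3, the alpha-actinin of fast fibers, was at 7177, 10389, 19518 and 2589 normalized counts in KO, against 1858, 3764, 6871 and 6444 in WT. Mybpc2, the fast myosin-binding protein C, was at 2633, 9233, 11623 and 2068 in KO, against 551, 3121, 4333 and 5179 in WT. For both, as for Pvalb, KO replicates 2 and 3 were the highest libraries and WT replicate 1 was the lowest. Myh1, the type IIx myosin heavy chain, was instead highest in WT replicate 3, at 194205 normalized counts, and next in KO replicate 2, at 186269. Of Pvalb, Actn3, Mybpc2, Myh1 and Myh4, none passed the test.

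**Figure D3:**
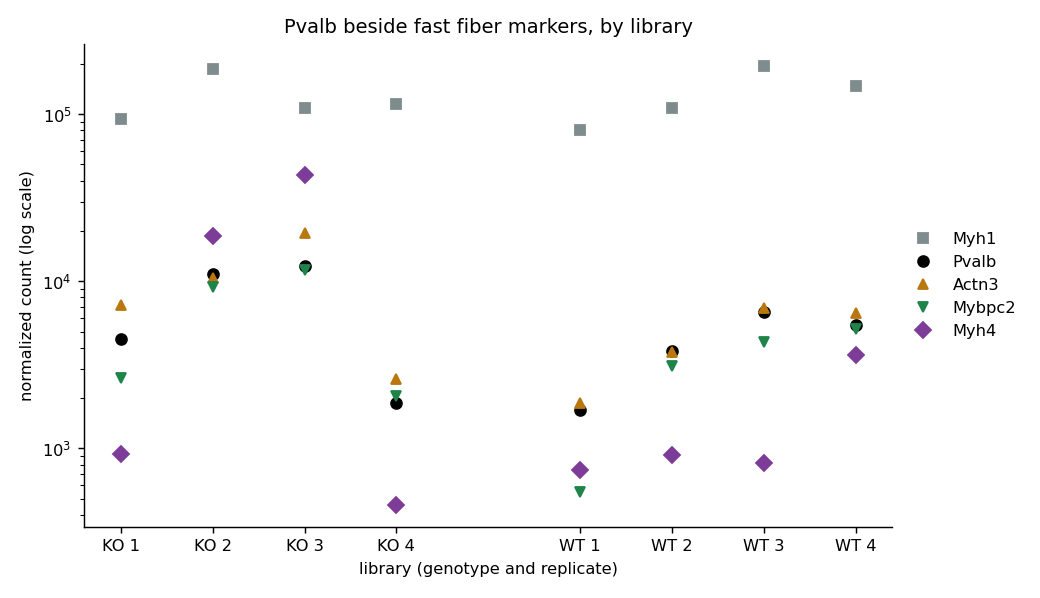
Normalized counts (y axis, log scale) of Pvalb and 4 fast fiber markers in each of the 4 KO and 4 WT libraries (x axis). Pvalb, Actn3, Mybpc2 and Myh4 are all highest in KO replicates 2 and 3, where Myh4 reaches 18638 and 43384.

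Junctophilin 1 (Jph1) ties the sarcoplasmic reticulum to the transverse tubule at the triad. It was at 4608, 5853, 5444 and 5277 normalized counts in the KO libraries, against 6675, 6257, 6021 and 6316 in the WT libraries. The genotypes did not overlap, but KO replicate 2 came within a small distance of WT replicate 3. The mean was 5295 ± 518 in KO and 6317 ± 270.4 in WT (SD, n = 4 each), a log2 fold change of -0.26 with a 95% interval of -0.43 to -0.09, which did not pass after adjustment (limma adjusted p = 0.0587). Without KO replicate 2 it was -0.31 and passed (limma adjusted p = 0.0386). Jph2, the paralog of heart and skeletal muscle, was at 11908 to 12922 in KO and 12463 to 13343 in WT (log2 fold change -0.04, limma adjusted p = 0.686).

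Ratios between genes within a library do not change with a scaling factor that is common to all genes of that library. They are given as descriptions, on the log2 scale, with no test. The ratio of Atp2a1 to Atp2a2 was -0.47, -0.60, -0.58 and -0.68 in the KO libraries, against 0.29, 0.05, 0.24 and 0.28 in the WT libraries, a difference of -0.80. The ratio of Casq1 to Casq2 was 0.34, 0.67, 0.42 and 0.33 in KO, against 1.01, 0.92, 0.98 and 0.86 in WT, a difference of -0.50. The ratio of Ryr1 to Ryr3 was 8.61, 7.87, 7.53 and 8.65 in KO, against 9.98, 10.16, 10.995 and 11.05 in WT, a difference of -2.38. For each of the 3 pairs of paralogs the ratio of the adult fast or main skeletal form to the other form was therefore lower in every KO library than in any WT library.

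The inhibitors were also set against the pumps. The log2 ratio of Pln to Atp2a2 averaged -8.25 ± 0.163 in KO and -8.96 ± 0.241 in WT (SD, n = 4 each), 1.63-fold higher in KO without overlap. The log2 ratio of Sln to Atp2a1 averaged -3.88 ± 0.133 in KO and -6.20 ± 0.474 in WT (SD, n = 4 each), 4.99-fold higher in KO without overlap. The ratio of Sln to Atp2a1 thus differed more than either gene alone, since the first rose and the second fell. The log2 ratio of Pvalb to Atp2a1 averaged -5.29 ± 1.24 in KO and -6.58 ± 0.881 in WT (SD, n = 4 each) and overlapped. Its difference was 1.29, and 0.30 without KO replicates 2 and 3, where all 6 ratios kept their sign.

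**Figure D4:**
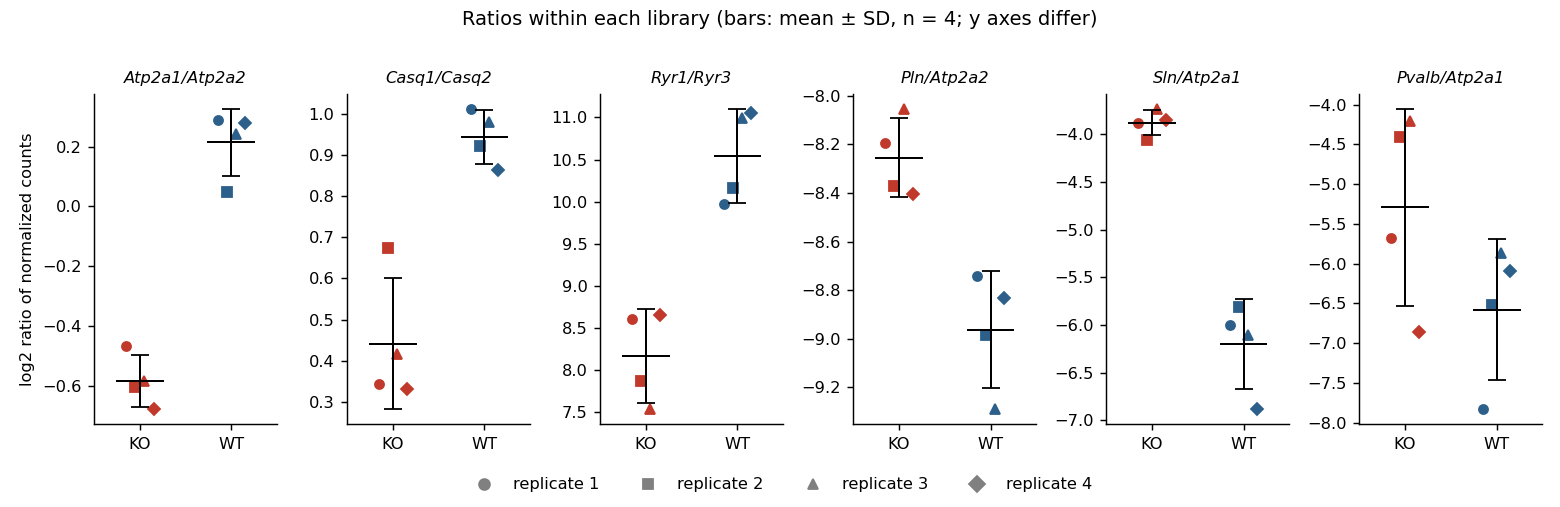
Log2 ratios of normalized counts within each library (y axes, which differ in range) for 6 pairs of calcium genes in 4 KO (red) and 4 WT (blue) libraries, with bars for mean ± SD. Only Pvalb/Atp2a1 overlaps between genotypes, and the differences run from -2.38 for Ryr1/Ryr3 to 2.32 for Sln/Atp2a1.

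Most other calcium genes did not pass the test. Of 59 genes in 6 lists, 56 were measured, of which 1 rose, 3 fell and 52 did not pass, or 7.14% called, close to the 8.95% over all genes. Their median log2 fold change was -0.01. These lists hold the remaining partners of the pump, the triad, store-operated entry, export at the plasma membrane, mitochondrial uptake and the other buffers.

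Among 6 partners of SERCA, Erln and Arln were not found and Hrc was the only called gene. Hrc, the histidine-rich calcium-binding protein of the store, was at 28859, 29336, 29201 and 30714 normalized counts in the KO libraries, against 34021, 34637, 34668 and 33981 in the WT libraries. It fell by 0.22 on the log2 scale (SE 0.048, limma adjusted p = 0.0207). It did not pass without KO replicate 1, KO replicate 3 or WT replicate 4 (limma adjusted p = 0.0576, 0.0680 and 0.0536). Scaling by total alone, or by total without the 10 most abundant genes, also lost the call (limma adjusted p = 0.0907 and 0.0829). So did fits with no trend in the prior variance, or with Myh4 or depth as a covariate (limma adjusted p = 0.0919, 0.0755 and 0.259). Strit1, whose product DWORF in mice competes with phospholamban for the pump, was at 457 to 552 in KO and 321 to 471 in WT (log2 fold change 0.36, limma adjusted p = 0.108). Mrln, which encodes the inhibitor myoregulin, was at 229 to 288 in KO and 205 to 333 in WT (log2 fold change -0.01). Of the inhibitors of the pump that were measured, Pln and Sln thus rose and Mrln did not pass.

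Of 20 genes of the release unit and triad, Tmem38a and Cacna1s fell, and 18 did not pass. Tmem38a encodes TRIC-A, a potassium channel of the store membrane that balances charge during release. It was at 32633, 32291, 31944 and 34931 normalized counts in the KO libraries, against 45226, 44769, 42677 and 41756 in the WT libraries, a log2 fold change of -0.40 (SE 0.055, limma adjusted p = 0.00263). Cacna1s, the voltage sensor of the transverse tubule, was at 30118, 20839.9, 26196 and 22056 in KO, against 30919, 33388, 34207 and 30665 in WT (log2 fold change -0.39, limma adjusted p = 0.0438). KO replicate 1 was close to WT replicates 1 and 4, and of the 8 fits that left out a library, only that without KO replicate 1 called Cacna1s (limma adjusted p = 0.0113). Scaling by total alone, or by total without the 10 most abundant genes, lost its call (limma adjusted p = 0.0779 and 0.0785). So did fits with no trend in the prior variance or with Myh4 as a covariate (limma adjusted p = 0.121 and 0.123). The other subunits of that channel, Cacnb1, Cacna2d1 and Cacng1, had log2 fold changes of 0.17, -0.03 and -0.09 and did not pass. Trdn, which anchors calsequestrin to the release channel, was at 25295, 12936, 27774 and 21791 in KO, against 26311, 29739, 30406 and 24419 in WT, and did not pass (log2 fold change -0.39, limma adjusted p = 0.253), with KO replicate 2 far below the rest.

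Of 8 genes of store-operated entry and IP3 receptors, Orai2 rose. It encodes a calcium channel of the plasma membrane and was at 91.8, 96.0, 78.4 and 59.9 normalized counts in KO, against 35.6, 47.9, 26.1 and 44.6 in WT (log2 fold change 1.07, SE 0.255, limma adjusted p = 0.0275). Its call was kept in 3 of the 8 fits that left out a library, and was lost with Myh4 as a covariate (limma adjusted p = 0.0892). The far more abundant Orai1, the main channel of this entry, was at 1173 to 1305 in KO and 1331 to 1529 in WT without overlap, but did not pass (log2 fold change -0.23, limma adjusted p = 0.0731). None of 7 genes of plasma membrane export, 8 of mitochondrial uptake and 9 other buffers and sensors passed. The nearest was the sodium-calcium exchanger Slc8a3, at 1724 to 2141 in KO and 967 to 1787 in WT (log2 fold change 0.62, limma adjusted p = 0.0731). Mcu, the pore of the mitochondrial calcium uniporter, was at 1837 to 2201 in KO and 1939 to 2126 in WT (log2 fold change -0.02).

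Markers of other cells in the muscle also moved with genotype. The 3 fat markers measured, Adipoq, Plin1 and Cidec, rose, with a sum of 1779 to 4121 in KO and 491 to 1216 in WT libraries. Of 4 macrophage markers Cd68 and C1qa rose and 2 did not pass, with a sum of 1296 to 1909 in KO and 832 to 1182 in WT. Of 4 endothelial markers Cdh5 and Tie1 fell and 2 did not pass, with sums that overlapped, of 6771 to 9312 in KO and 9284 to 10850.1 in WT. Of 3 satellite cell markers Pax7 fell and 2 did not pass, with sums that also overlapped. None of 4 smooth muscle markers passed, with a sum of 3815.5 to 4939.8 in KO and 4365 to 4869 in WT, and none of 4 Schwann cell and 2 tendon markers passed. The part of these cells in the results for the 10 genes was not tested.

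The genes most like 9 of the 10, Jph1 left out, across the 8 libraries were ranked by Pearson r of log2(normalized count + 1), among 6545 other genes with a mean of at least 500 normalized counts. Because the 8 libraries share 2 genotypes, r is high for any pair of genes that differ between genotypes, and it is given as a description. For Atp2a1 the closest was Rpl3l, a ribosomal protein of striated muscle, with r = 0.988, followed by Slc25a12 and the fast troponin Tnnt3 with 0.985 each. Sln was closest to Lrrcc1 (0.995), Pln to Prune2 (0.989) and Ryr3 also to Prune2 (0.976). Casq2 was closest to the co-chaperone Stip1 (0.983) and Ryr1 to Prxl2c (0.983). For the genes that did not differ between genotypes beyond the threshold, Atp2a2 was closest to Pmp22 (0.938), Casq1 to Ptges3 (0.964) and Pvalb to Actn3 (0.962).

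Leaving out KO replicates 2 and 3 together kept the calls for Atp2a1 (log2 fold change -0.73, limma adjusted p = 0.0175) and Sln (1.60, limma adjusted p = 0.0339), with 1.00% of all genes called. In that fit of 2 KO and 4 WT libraries the other 4 did not pass, with log2 fold changes of 0.72 for Pln, 0.46 for Casq2, -0.35 for Ryr1 and 1.55 for Ryr3 (limma adjusted p from 0.0681 to 0.114). Nor did Tmem38a, Hrc, Orai2 and Cacna1s pass in it (limma adjusted p = 0.0572, 0.161, 0.195 and 0.215). With depth as a covariate 0.354% of all genes were called, and of the 10 genes Atp2a1 alone (-0.71, limma adjusted p = 0.0459), with log2 fold changes of 1.76 for Sln, 0.69 for Pln, 0.57 for Casq2, -0.43 for Ryr1 and 1.48 for Ryr3. In that fit the log2 fold change of Cacna1s was -0.05 (limma adjusted p = 0.895), against -0.39 without the covariate. Depth and genotype were correlated across the 8 libraries (r = -0.790), so that their parts cannot be fully told apart.

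**Figure D5:**
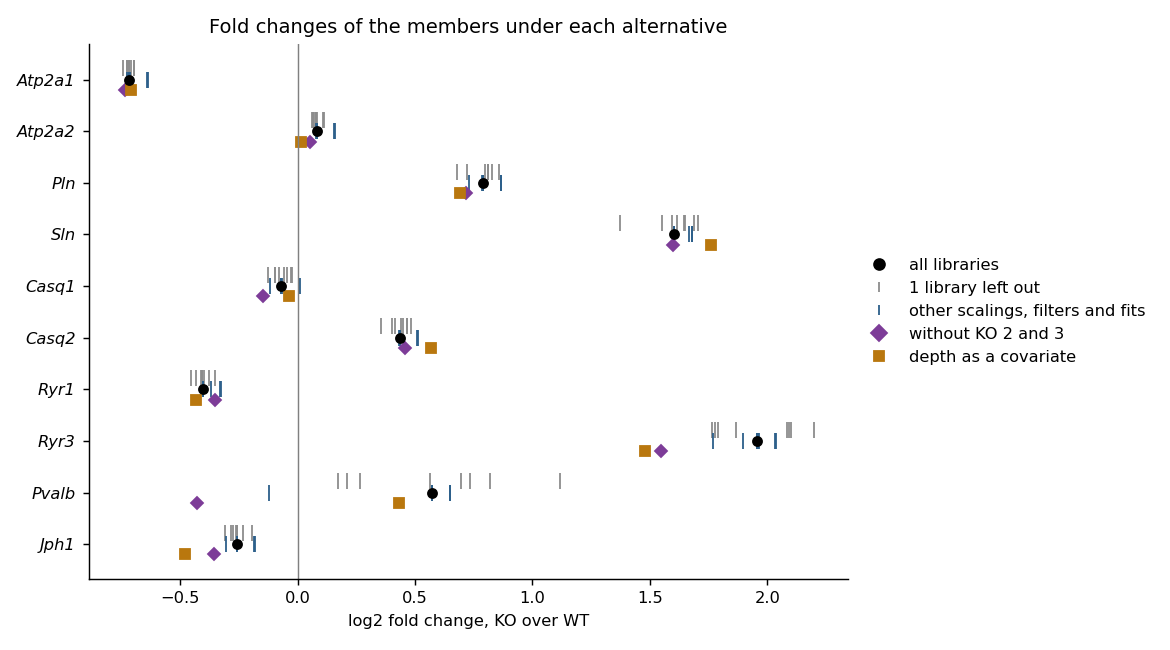
Log2 fold changes, KO over WT (x axis), of the 10 genes with all libraries (black), with 1 library left out (grey ticks), under other scalings, filters and fits (blue ticks), without KO replicates 2 and 3 (purple) and with depth as a covariate (orange). The 6 called genes stay on their side of 0 in all of these, while Pvalb and Casq1 cross it.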

How the data were processed

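Soleus RNA of 4 Megf10 KO and 4 WT mice was sequenced after poly-A selection. The authors trimmed reads with Trimmomatic 0.36, quantified transcripts with Salmon 0.11.3, summed these per gene through tximport, dropped counts up to 5, and scaled with DESeq2, on build GRCm39. The annotation release is not given in the sources used here. The deposited values are a signal per gene and library, gene counts divided by the authors' DESeq2 factors. The authors' comparison table (mean, log2 fold change, its SE, Wald statistic, p-values) was not used.

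A count model could not be used on such values, so limma 3.58.1 (R 4.3.3) was fitted to log2(value + 1) with genotype as the sole term, trended prior variance (prior degrees of freedom 4.59) and Benjamini-Hochberg adjustment over 16382 genes with a summed value above 5, which left out none. Fold changes are on this scale and understate those of low genes. A line with no gene name held 0.0112 to 0.0150% of a library and was not used. The spacing of low values, up to 60, gave the depth of each library in M reads. Of those values 14.9 to 37.3% were whole reads within 0.01, too few to recover counts. The mitochondrial share was 15.6 to 17.3% of reads. Lengths came from GENCODE and promoters from RefSeq, both on GRCm38 and matched by symbol. Tables and plots used Python 3.11.15, numpy 2.4.6, pandas 2.3.3 and matplotlib 3.10.9, and the fit was tested on simulated data.

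The genes, the lists of other calcium genes and markers, and the tests were chosen with earlier results of these data known. Genes were named by rule: the 10 members, Megf10, 5 myosin heavy chains, up to 4 called genes per list and the 3 genes most like each member, of which that for Jph1 is not reported here. Uncalled genes of the lists, and Actn3 and Mybpc2, were named after their values were seen. Alternatives were other pseudocounts, filters, scalings, prior variances, covariates, a stricter threshold, a replicate block and left-out libraries.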

Additional observations from a re-analysis of the deposited data

Results flagged for a closer look

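Of 52 groups of 4 libraries, 1 held a library far from the other 3, where chance alone flags about 1 in 20. Myh4, the type IIb myosin heavy chain, was at 3625 normalized counts in WT replicate 4, against 746 to 911 in the other WT libraries. None of the 10 calcium genes had such a library in either genotype.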

How the results depend on the processing

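The number of genes called was 1466 and that of calcium genes 6 of 10. Genes called numbered 819 without a trend in the prior variance, 705 with Myh4 as a covariate, 440 at an adjusted p under 0.01, 164 without KO replicates 2 and 3 and 58 with depth as a covariate. Leaving out each library gave 662 (without KO replicate 3) to 1231 genes, with 907 without WT replicate 3 and 959 without WT replicate 4, and 6 calcium genes each time but 7 without KO replicate 2. Calcium genes called numbered 2 without KO replicates 2 and 3 and 1 with depth as a covariate. Of the 6, those fits lost 4 and 5, and with no trend Casq2 was also lost (limma adjusted p = 0.0608). Fewer libraries, or a covariate with r = -0.790 to genotype, entered those fits, and the cause of each lost call was not tested. Under library size alone higher and lower calls were 1279 and 321, against 845 and 621, while the median gene moved to 0.07. Signs turned for Casq1 (0.0094 by library size alone, 0.0063 without the 10 most abundant genes), for Pvalb (-0.43 without KO replicates 2 and 3, -0.12 with Myh4 as a covariate), for Myh4 (-0.87 without KO replicates 2 and 3, -0.57 with depth) and for Myh1 (0.027 and 0.024 under those 2 scalings, -0.27 to 0.16 with a library left out). Same-numbered KO and WT libraries did not deviate together (r = -0.03, -0.07, -0.04 and -0.04). The labels do not say whether the numbers pair the mice, and these values cannot decide it. With the replicate number as a block 1278 genes and 6 calcium genes were called, and Cacna1s did not pass (limma adjusted p = 0.0506). Cell type markers aside, Megf10, Ryr3 and Orai2 had the fewest reads among named called genes.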

Other observations

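Atp2b4, a calcium pump of the plasma membrane, was at 192, 754, 704 and 1077 normalized counts in the KO libraries, against 718, 1008, 203 and 251 in the WT libraries. The libraries of both genotypes spread over nearly the same range, and it did not pass the test (log2 fold change 0.39, limma adjusted p = 0.728).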
